A study of Mus musculus with 8 samples.

Results

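The 9 genes described here encode the p53 tumour suppressor, its feedback regulator and cell cycle target, and the mitochondrial arm of apoptosis. They are Trp53, Cdkn1a, Mdm2, Bbc3, Pmaip1, Bax, Bak1, Bcl2l1 and Mcl1, chosen by name from the 54532 genes of the expression table. RNA was sequenced from whole testes of juvenile mice on a C57BL/6J background, with 4 libraries from Spdya fl/fl mice (Sync-Spdya fl/fl, control) and 4 from Spdya fl/fl;Ddx4-CreERT2 mice (Sync-Spdya cKO, hereafter cKO). Spdya encodes a cyclin-like activator of CDK2 that acts at telomeres in meiosis. Both groups carried the floxed Spdya allele. Both had received an inhibitor of retinoic acid (RA) synthesis and then RA, so that spermatocytes entered meiosis together. Tamoxifen was given to both groups at RA7.5 and RA8.5, counted in days after RA, and testes were collected at RA11.5, when most spermatocytes are in mid to late pachynema. These are the times in the labels, and the study's methods give slightly earlier injections. The Ddx4-driven Cre is active in germ cells once tamoxifen is given and removes exon 2 of Spdya, whereas somatic cells of the same testes keep the allele. The controls carry no Cre, so Cre with tamoxifen and loss of Spdya cannot be told apart. The comparison asks whether transcripts of the p53 and mitochondrial death pathway differ in the cKO testis at a time point that precedes late pachynema.

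p53 is held at a low level by the ubiquitin ligase Mdm2, and mostly accumulates by protein stabilisation rather than by transcription. Once active it induces Cdkn1a, Mdm2 itself and the BH3-only genes Bbc3 (PUMA) and Pmaip1 (NOXA). Between them, the BH3-only proteins neutralise the protectors encoded by Bcl2l1 (BCL-XL) and Mcl1, though not each of them binds both. Freed BAX and BAK, encoded by Bax and Bak1, then permeabilise the outer mitochondrial membrane. Because BAX, BAK and the protectors are controlled largely by protein contacts, a change of their RNA and the death of a cell are separate measurements.

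The positions of the genes are those given with the deposited table, on the GRCm38 (mm10) build. Trp53 lies at chr11:69580359-69591873 on the plus strand, Cdkn1a at chr17:29090976-29100727 on the plus strand and Mdm2 at chr10:117688875-117710758 on the minus strand. Bbc3 lies at chr7:16308393-16318205 (plus) and Bax at chr7:45461697-45466898 (minus). Bak1 lies at chr17:27019810-27029009 (minus), Bcl2l1 at chr2:152780668-152831728 (minus) and Mcl1 at chr3:95658788-95663176 (plus).

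p53 binds DNA as a tetramer, through a pair of 10-base elements that each follow the p53 half-site consensus. The 250 bases upstream of the annotated RefSeq starts (GRCm38.p6) were searched for that consensus, which reads the same on both strands. Of the 9 genes, 8 had an entry, all but Pmaip1, with 13 windows in all. A half-site lay in 4 windows of 4 genes, against 7.13% of the 32851 windows of all genes. They are shown to give the sequence of the elements near the starts of these genes, 5′ to 3′ on the strand of the gene, with the half-site in capitals and 10 flanking bases on each side.
Trp53: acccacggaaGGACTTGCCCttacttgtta
Mdm2: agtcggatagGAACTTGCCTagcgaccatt
Bax: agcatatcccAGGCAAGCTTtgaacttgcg
Cdkn1a, first: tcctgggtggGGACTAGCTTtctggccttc
Cdkn1a, second: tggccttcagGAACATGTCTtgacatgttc
They correspond to chr11:69580274-69580303, chr10:117710925-117710954, chr7:45467080-45467109, chr17:29090896-29090925 and chr17:29090918-29090947.

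A pair of half-sites separated by at most 13 bases, with at most 1 mismatch in all, lay in 2 of the 13 windows, those of Bax and Cdkn1a, against 0.898% of all windows. These pairs are shown because Bax and Cdkn1a are the genes of the set with a paired element this close to an annotated start. The capitals mark the half-sites.
Bax, 1 mismatch: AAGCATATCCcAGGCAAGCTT
Cdkn1a, 0 mismatches: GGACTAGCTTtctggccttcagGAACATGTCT
Cdkn1a, 1 mismatch: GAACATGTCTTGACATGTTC
They lie at chr7:45467090-45467110, chr17:29090906-29090937 and chr17:29090928-29090947, and the Cdkn1a pairs share a half-site. The window of another annotated start of Cdkn1a, chr17:29093519-29093768, held 0 half-sites and 0 pairs. The whole of the Cdkn1a window with the matches, chr17:29090729-29090978, shows both pairs in place, with their 3 half-sites in capitals.
Cdkn1a upstream window: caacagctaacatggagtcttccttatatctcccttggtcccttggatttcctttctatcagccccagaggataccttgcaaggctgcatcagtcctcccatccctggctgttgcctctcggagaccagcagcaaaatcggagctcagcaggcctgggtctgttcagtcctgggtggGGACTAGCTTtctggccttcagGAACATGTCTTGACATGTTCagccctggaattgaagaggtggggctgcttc
A match describes these letters and is no evidence of binding. The promoters of Bbc3, Bak1, Bcl2l1 and Mcl1 held no match in this window, and elements farther away were not searched.

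The deposited values are FPKM, fragments scaled to the length of the gene and the size of the library, which allow levels to be compared between genes. The 8 libraries held 13978342 to 19583091 fragments, as recovered from the FPKM and the gene lengths. Spdya itself was at 20.8, 21.0, 23.8 and 19.7 FPKM in the controls and at 30.5, 22.2, 26.1 and 17.7 FPKM in the cKO. These are values of the whole gene and not of exon 2, so they do not check the deletion. Control replicate 1 stood apart from the other 7 libraries: mitochondrially encoded genes took 0.464% of its fragments, against 2.20% to 3.74% elsewhere. It was the highest of the 8 libraries in 34.2% of the 12141 genes tested and the lowest in 23.6%, or an extreme in 57.8%. Among the 9 genes it was the highest for 7 and the lowest for the other 2, Trp53 and Bak1. The results of the 9 genes are therefore given with and without this library, as are the counts of the gene lists and the summed markers. Reference to it was made after its values were seen, and its part in the results beyond the values without it was not tested.

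Levels of the 9 genes spanned a wide range. Averaged over the 8 libraries, Mcl1 was the highest at 68.0 FPKM and Cdkn1a the lowest at 2.34 FPKM. Mdm2, Bax and Bcl2l1 followed Mcl1 at 31.9, 30.5 and 28.2 FPKM. Mdm2 exceeded Bax in 4 of 8 libraries and Bax exceeded Bcl2l1 in 5 of 8, so these neighbours did not differ beyond their spread. Trp53 came next at 18.3 FPKM, below Bcl2l1 in all 8 libraries. Bbc3, at 12.4 FPKM, was below Trp53 in 7 of 8 libraries and above Pmaip1, at 8.47 FPKM, in 7 of 8, but the ranges of both pairs overlapped. Bak1 averaged 4.51 FPKM, below Pmaip1 and above Cdkn1a in all 8 libraries. Cdkn1a, although a standard readout of p53 activity, stood above only 12.0% of the genes tested. Its fragments numbered 112 to 150 per library and those of Bak1 105 to 237, so counting error is largest for this pair.

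**Figure D1:**
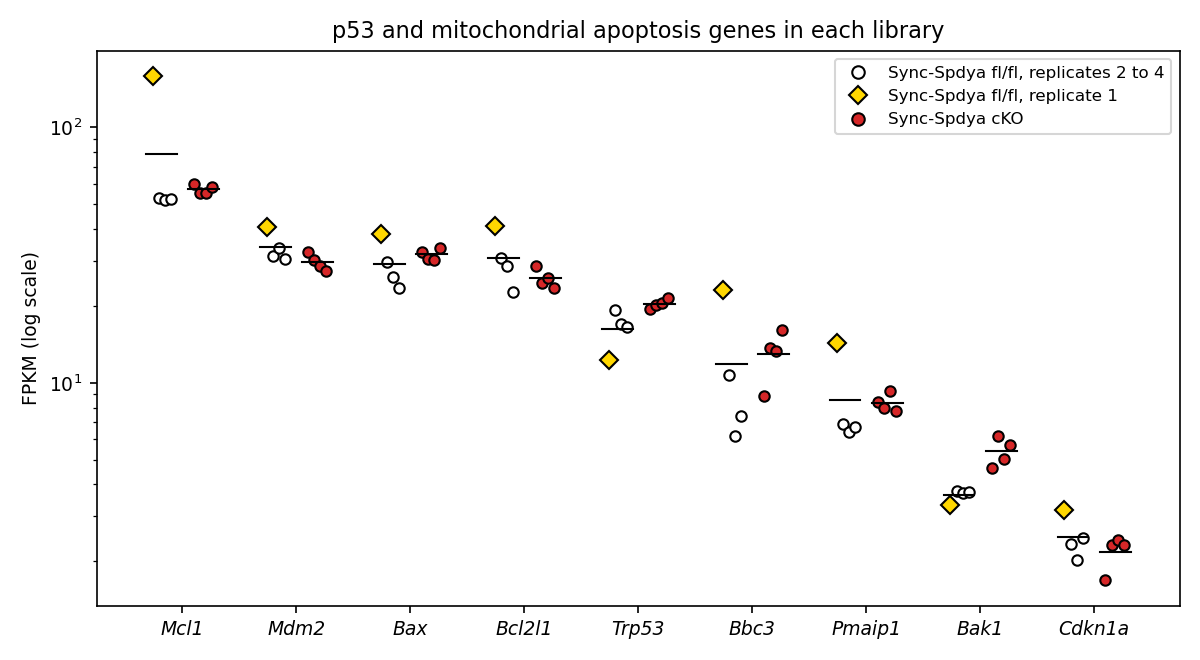
FPKM (log axis) of the 9 genes in each library, ordered by mean level. Circles are single libraries (white, control replicates 2 to 4; red, cKO), the yellow diamond is control replicate 1 and bars are group means of 4 libraries. The diamond is the highest point for 7 genes and the lowest for Trp53 and Bak1, and the 4 cKO points of Bak1 and Trp53 lie above all control points.

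A gene was called when its log2 fold change exceeded 1 in either direction and its limma p, adjusted by Benjamini-Hochberg over all genes tested, was below 0.05. None of the 9 genes was called between cKO and control, against 2 of 12141 genes tested, or 0.0165%. All 9 passed the filter on low values. At an unadjusted p below 0.05, 2 of the 9 were higher in the cKO, Bak1 and Trp53, and none was lower, where 5.89% of all genes tested were higher and 5.0% lower. The same pair had no overlap between groups, where 3.64% of all genes lay wholly higher and 2.59% wholly lower. The median log2 fold change of the 9 was 0.04, beside 0.01 over all genes tested. Without control replicate 1, 5 of the 9 were higher at an unadjusted p below 0.05 (Trp53, Bbc3, Pmaip1, Bax and Bak1), against 9.66% of all genes, and none was lower, against 5.90%. The groups then did not overlap for 5 genes, again all higher in the cKO (Trp53, Pmaip1, Bax, Bak1 and Mcl1), against 8.29% of all genes, and none lay wholly lower, against 5.0%. None of these reached an adjusted p below 0.05, and the median of the 9 was 0.22, beside 0.03 over all genes.

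Trp53, the gene of p53 itself, was at 12.3, 19.2, 17.0 and 16.5 FPKM in the controls and at 19.4, 20.2, 20.5 and 21.5 FPKM in the cKO. All cKO libraries thus lay above all controls, by a narrow margin over control replicate 2. The means were 16.2 ± 2.89 and 20.4 ± 0.871 FPKM (SD, n = 4 each). This was a log2 fold change of 0.35 (SE 0.13, 95% interval 0.05 to 0.64), with a limma unadjusted p of 0.0267 and an adjusted p of 0.401. The unadjusted p no longer passed 0.05 when cKO replicate 2, 3 or 4 was left out. An exact two-sided permutation test gave p = 0.0286, the smallest that 4 libraries against 4 allow. Any gene whose groups do not overlap gets this p, so it restates the separation. Leaving out control replicate 1 gave a log2 fold change of 0.22 (limma adjusted p = 0.270) and the groups remained separate. A Trp53 pseudogene in the table stayed between 0.190 and 0.919 FPKM.

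Mdm2, the ligase that degrades p53 and is itself a p53 target, was at 40.8, 31.4, 33.6 and 30.6 FPKM in the controls. In the cKO it was at 32.6, 30.2, 28.6 and 27.5 FPKM, so the groups overlapped. Mdm2 had a log2 fold change of -0.19 (SE 0.12, 95% interval -0.45 to 0.07, limma adjusted p = 0.604), and -0.10 without control replicate 1.

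Cdkn1a, which encodes the CDK inhibitor p21, was at 3.18, 2.33, 2.02 and 2.47 FPKM in the controls and 1.68, 2.31, 2.42 and 2.32 FPKM in the cKO. The groups overlapped, and cKO replicate 1 was the lowest of the 8 libraries. Its log2 fold change was -0.18 (SE 0.18, 95% interval -0.57 to 0.21, limma adjusted p = 0.769), and -0.06 without control replicate 1. The upper bound of the interval with all 8 libraries corresponds to a level 1.16 times that of the controls. Without control replicate 1 the 95% interval was wider at its upper end, from -0.43 to 0.30. AC167363.2, a transcript on the opposite strand that shares 273 of the 3553 exon bases of Cdkn1a, was at 0.438 FPKM or less in every library. Patterns were compared by the root mean square difference of centred log2 values over the 8 libraries. Nearest to Cdkn1a were Cyp39a1 (0.0748), Kctd14 (0.0775) and Gm18336 (0.0909), where the median over the genes tested was 0.307. They were picked as the nearest of all genes tested, so lying below that median is no evidence of a shared pattern. Counting error alone was 9.45% for Cdkn1a at its lowest fragment count.

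Of the BH3-only genes, Bbc3 was the most variable. It was at 23.1, 10.8, 6.20 and 7.38 FPKM in the controls and 8.91, 13.7, 13.3 and 16.1 FPKM in the cKO. Control replicate 1 was the highest of all 8 libraries, at 2.84 times the mean of the other 3 controls. With it, the log2 fold change was 0.30 (SE 0.36, 95% interval -0.51 to 1.10, limma adjusted p = 0.819). Without it, the log2 fold change was 0.68 (95% interval 0.19 to 1.17, limma unadjusted p = 0.0118, adjusted p = 0.198), and cKO replicate 1 still lay below control replicate 2.

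Pmaip1 was at 14.3, 6.90, 6.43 and 6.69 FPKM in the controls and 8.38, 7.98, 9.32 and 7.72 FPKM in the cKO. The cKO libraries sat between control replicate 1 and the other 3 controls. Its log2 fold change was 0.04 (SE 0.23, 95% interval -0.47 to 0.56, limma adjusted p = 0.961) with all 8 libraries. The groups separated without control replicate 1, with means of 6.67 ± 0.234 FPKM (SD, n = 3) and 8.35 ± 0.702 FPKM (SD, n = 4). The log2 fold change was then 0.32 (95% interval 0.10 to 0.53, limma unadjusted p = 0.00794, adjusted p = 0.169).

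Bak1, one of the pore-forming effectors, showed the largest log2 fold change of the 9. It was at 3.33, 3.78, 3.69 and 3.73 FPKM in the controls and at 4.63, 6.17, 5.05 and 5.70 FPKM in the cKO. The lowest cKO library stood above the highest control. The means were 3.63 ± 0.206 and 5.39 ± 0.682 FPKM (SD, n = 4 each), a level 1.46 times that of the controls (95% interval 1.22 to 1.76). The log2 fold change of 0.55 (SE 0.12, 95% interval 0.28 to 0.82) had an unadjusted p of 0.000999 and a limma adjusted p of 0.150. The exact permutation test gave the smallest p possible, 0.0286, which again restates the lack of overlap. After Bak1 and Trp53, the lowest p of that test among the 9 was 0.114, for Mdm2. Without control replicate 1 the log2 fold change was 0.51 (limma adjusted p = 0.0930). The adjusted p went below 0.05 in 1 of the 21 alternatives in which Bak1 was tested, the fit that weights libraries by their scatter. The limma adjusted p was 0.0370 there and ranged up to 0.559 in the others. With those weights 454 of 12141 genes tested had an adjusted p below 0.05, against 2 in the main fit.

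Part of Bak1 is shared with another transcript. Ggnbp1, which encodes a binding partner of the germ cell protein gametogenetin, lies on the opposite strand and covers 437 of the 2407 exon bases of Bak1, or 18.2%. Ggnbp1 was at 20.6, 13.7, 13.3 and 9.75 FPKM in the controls and at 9.31, 8.40, 6.47 and 9.11 FPKM in the cKO. All its cKO values lay below all controls, the opposite direction to Bak1. Its log2 fold change was -0.74 (SE 0.21, limma unadjusted p = 0.00545, adjusted p = 0.260), and -0.55 without control replicate 1. Whether reads were counted by strand is not given in the sources used here, so reads from the shared bases may have been assigned to either gene, and the part of this overlap in the Bak1 value was not tested.

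Bax, the other effector, was at 38.2, 29.6, 25.9 and 23.4 FPKM in the controls and 32.6, 30.6, 30.2 and 33.7 FPKM in the cKO. The highest value was that of control replicate 1, and the 4 cKO values lay above the other 3 controls. The log2 fold change was 0.14 (SE 0.15, 95% interval -0.18 to 0.47, limma adjusted p = 0.783) with all libraries and 0.28 (95% interval 0.06 to 0.50, limma unadjusted p = 0.0192, adjusted p = 0.226) without that control. Gm45808, which shares 192 of 1576 exon bases with Bax on the same strand, was listed at 0 in every library.

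The protectors Bcl2l1 and Mcl1 had fitted log2 fold changes below 0 with all 8 libraries, and neither passed the test. Bcl2l1 was at 41.2, 30.7, 28.5 and 22.7 FPKM in the controls and 28.7, 24.6, 25.7 and 23.5 FPKM in the cKO. The groups overlapped, with the lowest value in control replicate 4. Its log2 fold change was -0.24 (SE 0.17, 95% interval -0.60 to 0.13, limma adjusted p = 0.658), and -0.09 without control replicate 1.

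Mcl1, which encodes a short-lived protector, was at 158.8, 52.6, 51.8 and 52.3 FPKM in the controls. The cKO libraries were at 59.7, 55.3, 55.3 and 58.2 FPKM. Control replicate 1 was at 3.04 times the mean of the other 3 controls, whose SD was 0.395 FPKM (n = 3). The direction of Mcl1 turned with that library: the log2 fold change was -0.27 (SE 0.32, 95% interval -0.99 to 0.45, limma adjusted p = 0.814) with it and 0.13 (95% interval -0.05 to 0.30, limma adjusted p = 0.470) without it. In the latter case all 4 cKO libraries lay above the 3 controls, although the p did not pass 0.05.

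**Figure D2:**
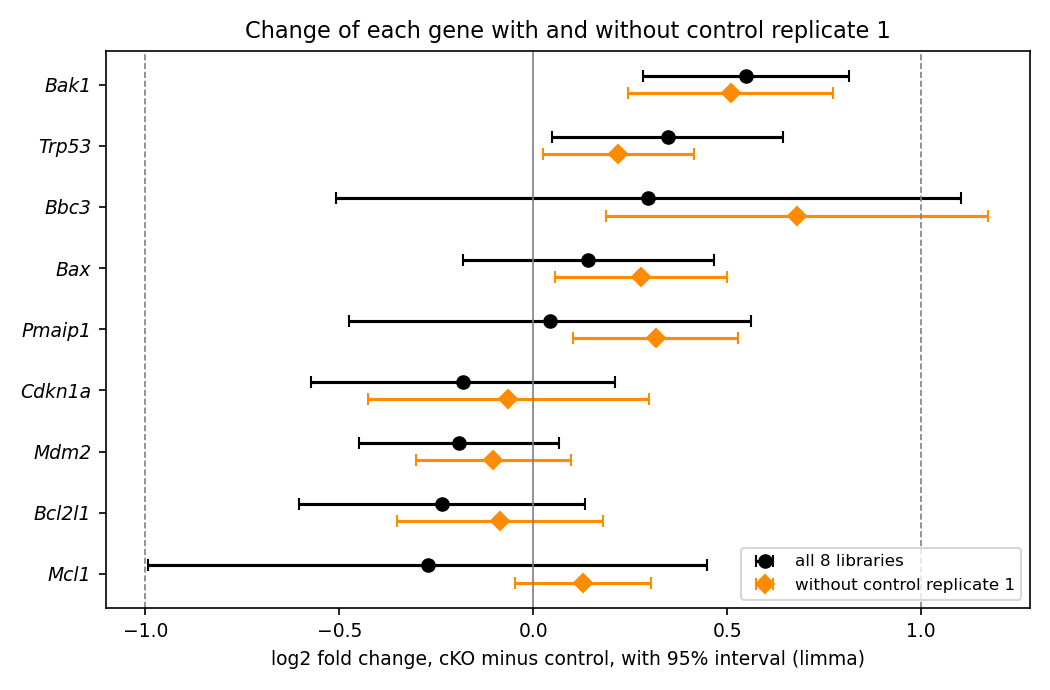
Log2 fold change (cKO minus control, x axis) of each gene with its 95% interval from limma. Black circles are fits of all 8 libraries, orange diamonds fits without control replicate 1, and dashed lines mark an absolute log2 fold change of 1. With all libraries the intervals of Bak1 and Trp53 exclude 0, and without control replicate 1 those of Bbc3, Bax and Pmaip1 do so as well, while Mcl1 moves from -0.27 to 0.13.

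The balance of death and survival genes within a library does not depend on its scaling. For each library, 8 ratios were formed of Bax, Bak1, Bbc3 or Pmaip1 over Bcl2l1 or Mcl1. They were chosen after the values of the genes were seen and are given as a description. Bax over Bcl2l1 was 0.926, 0.964, 0.908 and 1.03 in the controls and 1.14, 1.24, 1.18 and 1.43 in the cKO. For this ratio control replicate 1 lay within the other controls, and the groups were separate. Bak1 over Mcl1 ran from 0.0210 to 0.0718 in the controls and from 0.0775 to 0.112 in the cKO, also separate. Pmaip1 over Mcl1 ran from 0.0903 to 0.131 and from 0.133 to 0.169, separate by a small gap. The other 5 ratios overlapped between groups, and the mean of each of the 8 was higher in the cKO, at 1.20 to 1.71 times that of the controls. Without control replicate 1 these ran from 1.11 for Bax over Mcl1, which was 1.27 with it, to 1.74 for Bbc3 over Bcl2l1, and the same 3 ratios were separate. Ratios that share a gene are not independent of each other. Bak1 alone was already separate between groups, and how often ratios of other genes separate was not tested.

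**Figure D3:**
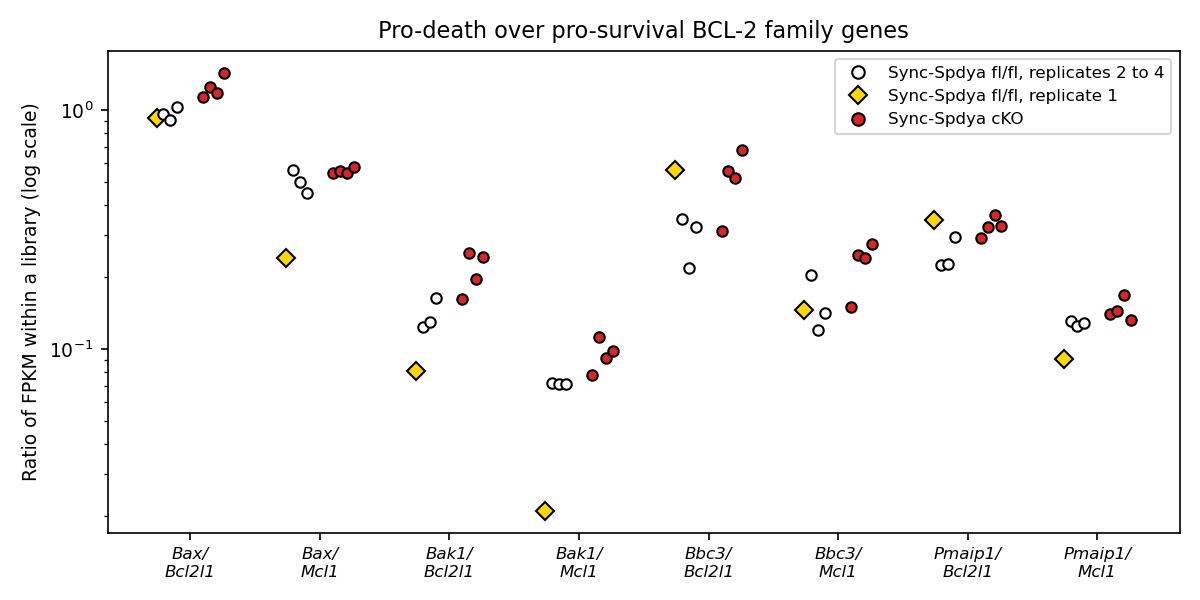
Ratio of the FPKM of a death gene to that of a protector within each library (log axis). White circles are control replicates 2 to 4, the yellow diamond is control replicate 1 and red circles are the cKO. The groups are separate for Bax over Bcl2l1, Bak1 over Mcl1 and Pmaip1 over Mcl1, and control replicate 1 lies within the other controls for Bax over Bcl2l1.

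Among the other genes of the pathway, none was called in any of 5 lists. Of the 14 p53 regulators tested, 1 was higher and 1 lower at an unadjusted p below 0.05, where 5.89% and 5.0% of all genes were. The median log2 fold change of the 14 was -0.12. Without control replicate 1 these counts were again 1 and 1, against 9.66% and 5.90% of all genes, with a median of -0.07. Hexim1, an inhibitor of the elongation factor P-TEFb that also binds p53, was at 28.2 ± 2.69 FPKM in the controls and 34.9 ± 2.76 FPKM in the cKO (SD, n = 4 each). The DNA damage kinase Atr was at 25.3 ± 2.74 and 20.02 ± 2.89 FPKM, a log2 fold change of -0.34 (limma adjusted p = 0.368). Mdm4, the partner of Mdm2, was at 28.7 ± 3.02 and 24.8 ± 0.647 FPKM, and did not pass an unadjusted p of 0.05. The p53 relatives Trp63 and Trp73 were under the filter, at mean levels of 0.210 FPKM or less in either group.

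Of 30 listed p53 targets, 26 were tested, 1 was higher at an unadjusted p below 0.05, where 5.89% of all genes were, and none was lower, with a median log2 fold change of 0.08. Perp, which encodes a tetraspan membrane protein of desmosomes and apoptosis, was at 2.20 ± 0.665 FPKM in the controls and 3.99 ± 1.46 FPKM in the cKO, a log2 fold change of 0.80 (SE 0.28, limma adjusted p = 0.350). Its groups overlapped. The nuclease gene Aen was at 9.47 ± 0.627 and 10.7 ± 0.465 FPKM, and the repair gene Xpc at 7.45 ± 0.814 and 8.37 ± 0.587 FPKM, neither passing 0.05. Targets under the filter went both ways between control and cKO. Fas averaged 0.602 and 1.06 FPKM, Plk3 0.840 and 1.16, Eda2r 0.272 and 0.347, and Rprm 0.111 and 0.0575 FPKM. Without a filter 2 targets were higher and 0 lower at an unadjusted p below 0.05, against 1072 and 841 of 19122 genes. With all biotypes the counts were 2 and 0, against 1106 and 1305 of 25931. The count without control replicate 1 was 6 of 26 higher and none lower, against 9.66% and 5.90% of all genes. The 6 were Phlda3, Perp, Gadd45g, Btg2, Ccnd1 and Dcxr. They are named after their values were seen. No target passed when control replicate 3, control replicate 4 or cKO replicate 1 was left out instead. Phlda3, an inhibitor of AKT, was at 23.2 FPKM in control replicate 1. Its log2 fold change was 0.64 without that library (limma adjusted p = 0.0550) and 0.18 with it.

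Of the other BCL-2 family genes, 12 of 19 were tested. At an unadjusted p below 0.05, 1 was higher and none lower, where 5.89% and 5.0% of all genes were. The median log2 fold change of the 12 was 0.12. Bik, a BH3-only gene, was at 4.84 ± 0.735 and 6.45 ± 1.33 FPKM (log2 fold change 0.40, limma adjusted p = 0.449). The BH3-only genes Bmf, at 3.60 ± 0.790 and 4.64 ± 0.872 FPKM, and Bid, at 10.3 ± 0.808 and 11.4 ± 0.350 FPKM, did not pass 0.05. The protector Bcl2 was under the filter, at means of 0.195 and 0.276 FPKM. In the fit without control replicate 1, 3 of the 12 were higher, against 9.66% of all genes: Bik, Bid and the BAX relative Bok.

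All 23 genes of the apoptosome and caspases were tested, and none passed an unadjusted p of 0.05 in either direction. Over all genes tested, 5.89% were higher and 5.0% lower. The median log2 fold change of the 23 was 0.03. Cycs, which encodes the cytochrome c that leaves permeabilised mitochondria, was at 21.5 ± 6.53 FPKM in the controls and 26.9 ± 2.00 FPKM in the cKO. The initiator caspase gene Casp9 was at 9.28 ± 0.339 and 10.2 ± 0.429 FPKM, and the death receptor adaptor Fadd at 3.33 ± 0.515 and 3.91 ± 0.299 FPKM. In the fit without control replicate 1, 2 of the 23 were higher, Casp8 and Bid, against 9.66% of all genes. Bid is listed both here and in the other BCL-2 family.

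Engulfment genes, which act where cells such as Sertoli cells clear dying germ cells, had the highest median of the 5 lists. Of 13 tested, 4 were higher and none lower at an unadjusted p below 0.05, where 5.89% of all genes were higher, all 13 log2 fold changes were above 0 and the median was 0.23. Gas6, which encodes the bridge between dying cells and the TAM receptors, was at 59.0 ± 5.43 FPKM in the controls and 87.4 ± 10.8 FPKM in the cKO. Its ranges of 51.0 to 63.0 and 81.2 to 104 FPKM did not overlap. The log2 fold change was 0.56 (SE 0.12, limma unadjusted p = 0.000938, adjusted p = 0.150). Pros1, the other TAM ligand, was at 6.72 ± 1.32 and 8.99 ± 0.887 FPKM, and the engulfment adaptor Elmo1 at 3.76 ± 0.707 and 4.92 ± 0.262 FPKM. Leaving out control replicate 1 gave 7 of 13, where 9.66% of all genes were higher, none lower and a median of 0.25, and leaving out control replicate 3 or cKO replicate 2 gave 2 of 13. The log2 fold change of Gas6 was 0.59 without control replicate 1.

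**Figure D4:**
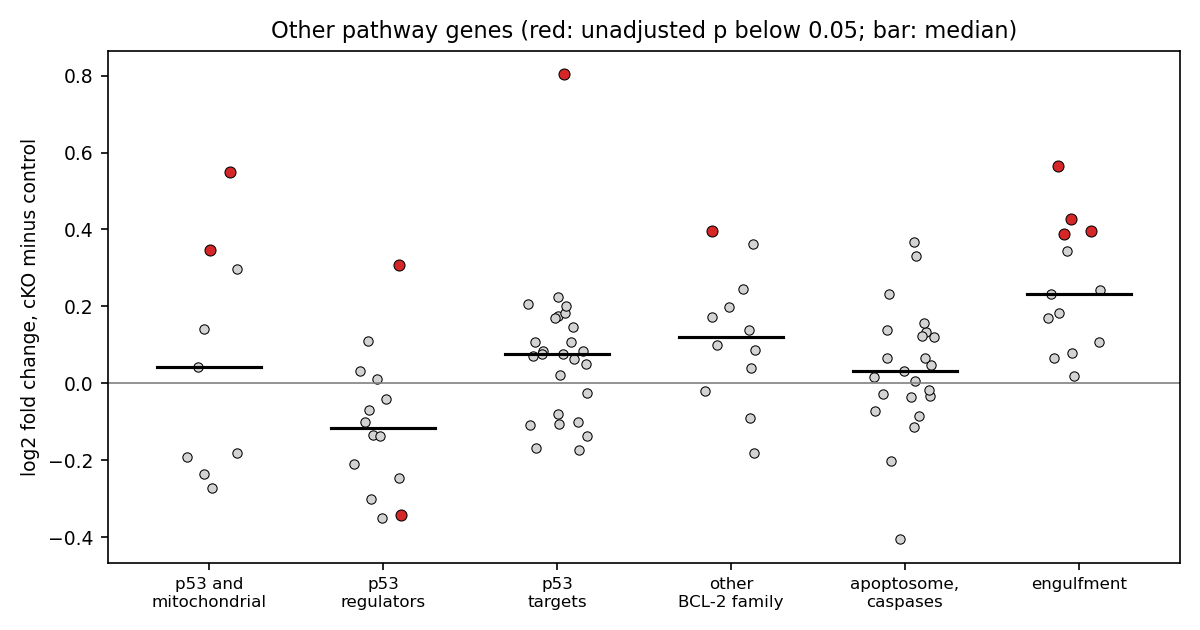
Log2 fold change (cKO minus control) of each tested gene of the 9 genes and of 5 further lists. Red points have an unadjusted limma p below 0.05, grey points do not, and bars are list medians, which run from -0.12 for p53 regulators to 0.23 for engulfment.

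Markers of cell types were summed in each library, because a testis with fewer spermatocytes would also show a different mixture of cells. In whole tissue, fewer cells of a type and less RNA per cell cannot be told apart. The testis label held: spermatocyte, spermatogonial and Sertoli markers were abundant. Of the 8 spermatid markers, only Spaca1 was tested, and the protamine and transition protein genes were at means of 0.355 FPKM or less. The 20 pachytene spermatocyte markers summed to 2023 to 2951 FPKM in the controls and 1724 to 2597 FPKM in the cKO, a mean ratio of 0.799 with overlapping groups. Of 17 tested, 3 were lower at an unadjusted p below 0.05 (Ldhc, Meioc and Piwil1), none was higher and none was called, where 5.0% of all genes were lower. The log2 fold changes of the 17 had a median of -0.20 and 1 of them was above 0. Markers under the filter went both ways between control and cKO. Hist1h1t averaged 0.279 and 0.667 FPKM, Spag6 0.579 and 0.799 FPKM, and Ccna1 1.65 and 0.964 FPKM. Without a filter 3 markers were lower and 1 higher at an unadjusted p below 0.05, and with all biotypes 4 and 1. cKO replicate 4 was the lowest of the 8 libraries for 15 of the 17. The count of 3 was 1 without control replicate 3 or cKO replicate 3, 5 without control replicate 4, 6 without cKO replicate 1 and 10 with library weights. Ybx2, the most abundant, was at 638 ± 129 and 549 ± 84.2 FPKM. Without control replicate 1 the ratio of sums was 0.827 and 4 of 17 were lower.

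Mean sums of the somatic markers were higher in the cKO, but the groups were separate for macrophage markers only, and the Sertoli, Leydig, peritubular and endothelial sums overlapped. As a reference for the counts, 5.89% of all genes tested were higher and 5.0% lower at an unadjusted p below 0.05. The 11 macrophage markers summed to 26.5 to 47.1 FPKM in the controls and 49.8 to 68.5 FPKM in the cKO, separate groups with a mean ratio of 1.53, or 1.40 without control replicate 1. Of 10 tested, 6 were higher at an unadjusted p below 0.05, none was called, and the most abundant, Lyz2, was at 9.20 ± 3.14 and 15.2 ± 2.83 FPKM. Peritubular markers, led by Acta2 at 49.5 ± 10.3 and 72.8 ± 11.2 FPKM, summed to 44.4 to 75.6 and 74.1 to 103 FPKM, with 1 of 3 tested higher. Their mean ratio was 1.40, and 1.13 without Acta2. Leydig markers, led by Nr5a1 at 20.8 ± 1.56 and 25.1 ± 1.51 FPKM, summed to 35.9 to 57.6 and 51.6 to 72.2 FPKM, with 3 of 4 tested higher. Endothelial markers, led by Cdh5 at 3.98 ± 1.71 and 6.19 ± 0.918 FPKM, summed to 5.98 to 13.3 and 12.3 to 15.6 FPKM, with 2 of 4 tested higher. Sertoli markers, led by Cst12 at 211 ± 47.5 and 245 ± 16.1 FPKM, summed to 507 to 663 and 596 to 704 FPKM, with none of 11 passing 0.05. Spermatogonial markers, led by Uchl1 at 89.1 ± 21.6 and 111 ± 3.38 FPKM, summed to 311 to 412 and 402 to 420 FPKM, with 3 of 15 higher and Stra8 lower. Stra8 ran from 4.53 to 19.8 FPKM in the controls, a wide spread, and from 2.03 to 4.70 FPKM in the cKO, so the groups overlapped. Its log2 fold change was -1.46 (limma adjusted p = 0.280), and -1.67 without control replicate 1. Spermatid markers summed to 4.23 to 11.1 and 6.001 to 8.001 FPKM, with Spaca1 at 4.47 ± 3.13 and 4.76 ± 0.863 FPKM. The somatic sums were higher in the same group as Bak1, Trp53 and the engulfment genes, and their part in those values was not tested. Leaving out control replicate 1, where 9.66% of all genes were higher, the counts higher at an unadjusted p below 0.05 were 5 of 10 for macrophage, 1 of 4 for Leydig, 1 of 4 for endothelial, 1 of 3 for peritubular, 2 of 11 for Sertoli, 4 of 15 for spermatogonial and 1 of 1 for spermatid markers. The mean ratios of the sums were then 1.34 for Leydig, 1.27 for endothelial, 1.40 for peritubular, 1.15 for Sertoli and 1.18 for spermatogonial markers. For spermatid markers the ratio was 1.24, against 1.00 with all libraries. No marker was at 0 in all libraries.

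**Figure D5:**
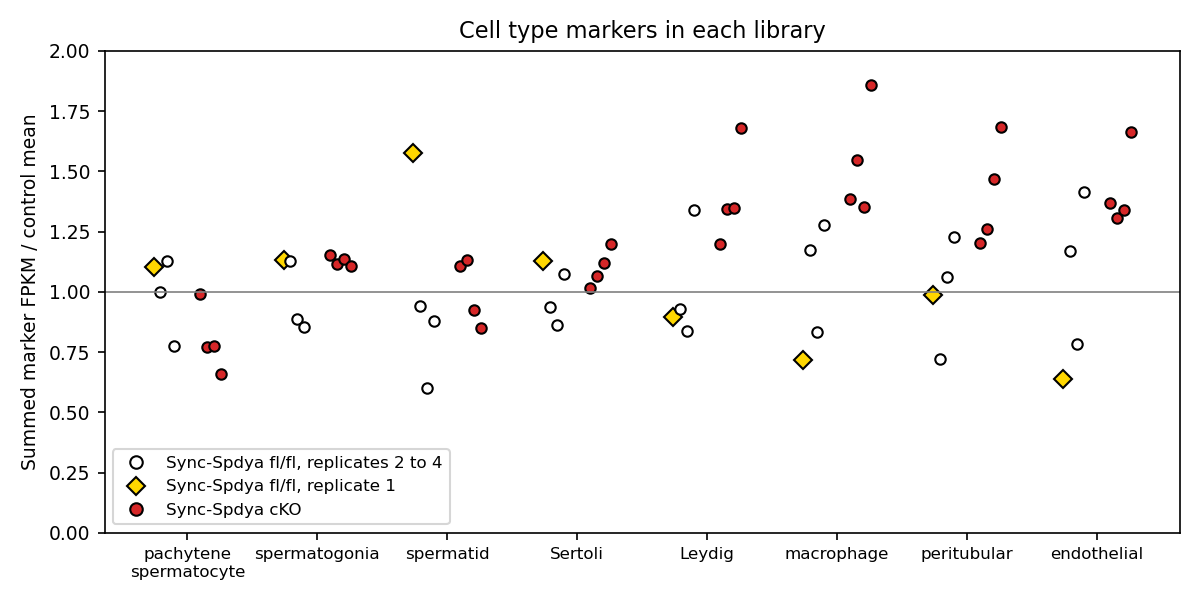
Summed FPKM of each marker list in each library, divided by the mean of the 4 control libraries. White circles are control replicates 2 to 4, the yellow diamond is control replicate 1 and red circles are the cKO. Pachytene spermatocyte sums overlap between groups, and the 4 macrophage sums of the cKO lie above all 4 control sums.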

How the data were processed

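Bulk RNA-seq was performed on synchronized testes of 4 control and 4 cKO samples, grouped by the genotype in the labels. The study gives 4 mice per genotype. The labels name a column RNA kit and a SMARTer mRNA-seq kit, and the study names Trizol. The authors deposited FPKM per gene, made by a sequencing company. The submitters' processing notes name GRCm38 and mm10, and the aligner, counter and use of strand are not given in the sources used here. The deposited table and the 8 library files held the same values. FPKM multiplied by gene length gave whole fragments for 100% of values (tolerance 0.02 fragments), which set the depth given in the report. Replicates differed by more than counting noise (lowest mean chi-square per gene 3.94), so none was taken as a copy of another.

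Testing covered the 12141 protein-coding genes whose mean FPKM exceeded 1 in each group, and was done on log2(FPKM + 0.1) with limma 3.58.1 (mean trend) in R 4.3.3. Fold changes on this scale understate changes of low genes. Called genes had a log2 fold change over 1 in either direction and an adjusted p below 0.05, which are the study's thresholds. The study's count test, DESeq2, was not run here, because the deposited values are FPKM. With it the study called more genes at these thresholds than the 2 of 12141 called here. Exact two-sided permutation tests used all 70 assignments. Named were the 9 genes, Spdya, the 3 genes of each pathway list with the smallest p, the most abundant gene of each marker list, genes overlapping one of the 9, the 3 genes nearest to Cdkn1a and any called gene of a list. Further genes were named after their values were seen. Alternatives were other pseudocounts, filters, scalings, weights, a replicate block, voom on the recovered fragments and the omission of each library. The 9 genes and the lists were chosen with earlier results of these data known. Promoter sequences are from RefSeq. Limma was run on simulated data in which no library stood apart as control replicate 1 does, so its behaviour with such a library was not tested.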

Additional observations from a re-analysis of the deposited data

Results flagged for a closer look

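Of 40 groups of 4 libraries examined for a single library far from the other 3, 4 held one, where chance gives about 2. Mcl1 was at 158.8 FPKM in control replicate 1, against 51.8 to 52.6 FPKM in the other controls. Pmaip1 was at 14.3 FPKM in the same library, against 6.43 to 6.90 FPKM. Mitochondrially encoded genes took 0.464% of the fragments of that library, against 2.97% to 3.39% in the other controls. Cdkn1a was at 1.68 FPKM in cKO replicate 1, against 2.31 to 2.42 FPKM in the other cKO libraries. The cause of these values was not tested.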

How the results depend on the processing

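None of the 9 genes was called under any alternative. Their count at an adjusted p below 0.05 was 0 except with library weights, where it was 1 (Bak1). With those weights 454 of all 12141 genes tested had an adjusted p below 0.05, against 2 in the main fit. Their count at an unadjusted p below 0.05 was 1 instead of 2 with a filter at 5 FPKM, where Bak1 and Cdkn1a were no longer tested, and 1 to 5 when each library was left out. It was 1 without cKO replicate 2, 3 or 4, where Trp53 no longer passed, and 5 without control replicate 1. Leaving that control out together with median centring, TPM scaling or voom, chosen after seeing the data, gave 5, 5 and 5. Over all genes tested this count, in either direction, was 1322 of 12141 in the main fit and 744 of 8331 with the 5 FPKM filter. It ran from 687 of 12151 to 1889 of 12137 as each library was left out. In the combined settings it was 1940, 1805 and 1849 of 12137. The count of the 9 without overlap was 1 with the 5 FPKM filter, 2 to 5 when each library was left out, and 5, 4 and 5 in those combined settings. Over all genes tested, those wholly higher numbered 442 of 12141 in the main fit and 252 of 8331 with that filter. They ran from 503 to 1006 as each library was left out and were 1023, 915 and 1006 in the combined settings. Genes wholly lower numbered 315 and 158, ran from 360 to 948, and were 657, 650 and 607. The genes called among all tested, 2 in the main fit, were 0 without a filter, 0 with the 5 FPKM filter, 8 with all biotypes, 1 with median centring, 1 with TPM scaling, 57 with library weights, 0 to 3 when each library was left out and 19, 31 and 13 in the combined settings. Voom on the recovered fragments called 2. Directions turned for Cdkn1a (0.016 with library weights), for Mcl1 (0.010 with library weights, -0.41 to 0.13 as each library was left out, 0.13 without control replicate 1, and 0.13, 0.13 and 0.13 in the combined settings) and for Pmaip1, whose log2 fold change ran from -0.065 to 0.32 as each library was left out and was below 0 without control replicate 2, 3 or 4 (-0.032, -0.065 and -0.046) or cKO replicate 3 (-0.01). The fit with the replicate number as a block called 0 genes and 2 of the 9 remained at an unadjusted p below 0.05. The deviations of each gene from its group mean correlated by 0.0757 to 0.406 between same-numbered libraries. Of the 8 libraries, 5 correlated best with their own number, a hint from the data and not from the design. How many would do so by chance was not tested. As each library was left out, the higher counts at an unadjusted p below 0.05 ran from 0 to 1 for p53 regulators (lower, 0 to 3), 0 to 6 for p53 targets, 0 to 3 for the other BCL-2 family, 0 to 2 for the apoptosome and caspases and 2 to 7 for engulfment. Pachytene markers that were lower numbered 1 to 6, Leydig markers that were higher 1 to 3, endothelial 0 to 2 and Sertoli 0 to 2. Over all genes tested, the same omissions gave 362 to 1173 higher and 325 to 942 lower, where the main fit gave 715 and 607. The cause of these differences was not tested. Counting error is largest for Cdkn1a and Bak1.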
